A study of Homo sapiens with 12 samples.

Results

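Chemical release at a nerve terminal depends on a shared set of proteins, and 38 genes for that machinery were followed here, out of the 27514 genes of a table of expression values. They were chosen by symbol as genes for proteins of synaptic vesicles, SNARE fusion proteins and their helpers, priming factors, active zone scaffolds and endocytosis proteins. The choice was made with earlier results of these data known. A synaptic vesicle is filled with transmitter, docks at the active zone and is primed by RAB3, UNC13 and CAPS proteins. Its membrane then fuses with that of the cell when SNARE proteins zip together, with synaptotagmins as calcium sensors and complexins as clamps, and its parts are retrieved by endocytosis through dynamin and its partners. Cells of the sympathetic lineage, from which neuroblastoma arises, use much of this machinery to release catecholamines, from dense-core vesicles as well as from small ones.

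The cells were IMR32, an established human neuroblastoma line with amplified MYCN. All 12 samples came from this 1 line, grown in RPMI-1640 with fetal calf serum, electroporated with siRNA by Nucleofector and harvested after 72 h for RNA sequencing. Each of 4 groups had 3 samples, transfected with a control siRNA (labelled siCTR, called siCtrl here), an siRNA to MYCN (siMYCN_2), an siRNA to HAND2 (siHAND2_3) or both (siM2+siH2_3, called the combined knockdown). MYCN is the MYC-family transcription factor that drives this type of tumour, and HAND2 is a basic helix-loop-helix factor of sympathetic neuron identity. The labels name 1 siRNA per target, so an effect of the target and an effect of that particular siRNA cannot be told apart. They do not say whether the replicates were separate cultures, and p-values measure the spread between these samples, which may be technical.

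The question of the series, by its title, was which genes HAND2 and MYCN regulate in these cells. Expression was given as CPM, the reads of a gene relative to all reads of the library, with library depths of 31.6 to 64.2 M reads inferred from the value of 1 read. The genes listed took 64.3 to 65.8% of the reads in siCtrl, 61.3 to 63.3% in siMYCN, 56.8 to 61.4% in siHAND2 and 44.3 to 58.4% in the combined knockdown. Over all 12680 tested genes the median log2 change came to 0.006 in siMYCN, -0.14 in siHAND2 and -0.28 with both siRNAs. Each result is given on the deposited scale and, where it matters, after rescaling the samples by median ratios (the rescaled scale), on which these medians were 0.014, 0.013 and 0.047. The targets moved as labelled: MYCN fell from 964 to 1049 CPM in siCtrl to 666 to 708 CPM in siMYCN and 433 to 555 CPM in the combined knockdown, and HAND2 fell from 224 to 254 CPM to 54.3 to 67.7 CPM in siHAND2 and 67.1 to 86.3 CPM in the combined knockdown. HAND2 rose to 319 to 334 CPM in siMYCN, so the single MYCN knockdown had more HAND2 RNA than the control. MYCN was 802 to 899 CPM in siHAND2, below every control sample, and was not called (adjusted p = 0.086, or 0.013 in a fit of these 2 groups alone). After rescaling these groups overlapped, at 847 to 893 in siHAND2 and 873 to 952 in siCtrl (-0.09, limma adjusted p = 0.26). On that scale MYCN was not called lower in the combined knockdown than in siMYCN (-0.16, 0.053). HAND2 was called higher there in the combined knockdown than in siHAND2 (0.43, 0.0016). Of 9 sympathoadrenal marker genes 8 had a mean of at least 1 CPM, with summed levels of 544 to 571 CPM in siCtrl and 717 to 744 in siMYCN, with 652 to 707 in siHAND2 and 504 to 784 in the combined knockdown. Summed fibroblast markers, mostly COL1A1, were 7.2 to 9.14 CPM in siCtrl and 6.31 to 7.36 in siMYCN, with 1.29 to 1.99 in siHAND2 and 0.975 to 1.28 in the combined knockdown. Their part in the results was not tested.

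Most of the tested genes among these 38 were called higher after each knockdown (mean of at least 1 CPM, adjusted p under 0.05). This majority did not hold at every setting, as given below. Among 76 tested genes of a longer list of release genes, described below, 19.7%, 18.4% and 22.4% rose in siMYCN, siHAND2 and the combined knockdown. Of the 38 genes 35 had a mean of at least 1 CPM and were tested. In siMYCN 21 of the 35 rose (60.0%) and 0 fell (limma; also 0 at an unadjusted p under 0.05, where 23 were higher), against 17.4% of all tested genes higher and 16.3% lower. In siHAND2 19 rose (54.3%) and 2 fell (5.71%), against 12.3% and 30.4% of all tested genes. In the combined knockdown 22 rose (62.9%) and 5 fell (14.3%), against 17.4% and 50.1%. The median log2 change of the 35 genes was 0.40, 0.41 and 0.46 in the 3 knockdowns. These comparisons use the same 3 siCtrl samples and are not independent of one another. With no filter on low values 42.1%, 34.2% and 47.4% of the 38 genes were called higher in the 3 knockdowns, so most were not. At an adjusted p under 0.01, 16, 16 and 18 of the 35 were higher. Without siMYCN replicate 3, 15 were higher in siMYCN, and without siCtrl replicate 3, 16 in siHAND2. The shares of all genes in these fits are not given here. With no filter on low values, every call against siCtrl of SYN1, SV2A, VAMP2, CPLX1, BSN, DNM1 and SH3GL2 was lost (adjusted p = 0.056 to 0.19), as were those of SYNGR1, STX1A and RAB3C in siMYCN and of ERC2 and DNM3 in siHAND2 (0.057 to 0.095).

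On the rescaled scale 25 rose and 0 fell in siMYCN, 25 rose and 2 fell in siHAND2, and 26 rose and 2 fell in the combined knockdown. All tested genes stood there at 25.4% higher and 22.4% lower, 26.0% and 24.8%, and 37.8% and 32.9%. The medians of the 35 became 0.41, 0.53 and 0.80. In bulk RNA, more RNA per cell and more cells of a type with that RNA cannot be told apart.

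**Figure D1:**
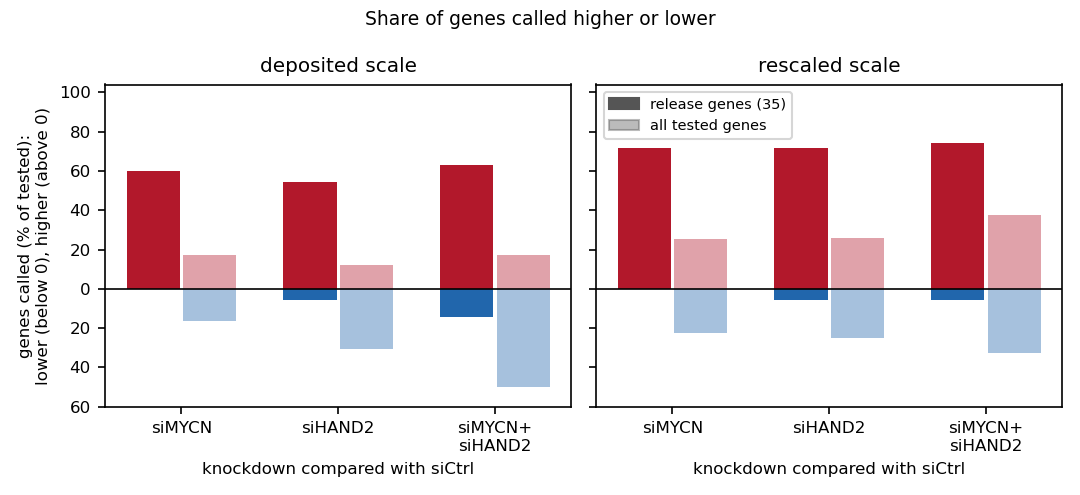
Percent of tested genes called higher (bars above 0) or lower (bars below 0) than siCtrl, at an adjusted p under 0.05, in each knockdown, for the 35 tested release genes (full colour) and all tested genes (pale), on the deposited scale (left) and after rescaling (right). The release genes stand at 60.0%, 54.3% and 62.9% higher on the deposited scale, against 17.4%, 12.3% and 17.4% of all genes.

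Rises in all 3 knockdowns were called for 14 genes: SYN1, SYP, SYNGR1, SYNGR3, SYT11, STX1A, CPLX1, NAPB, RAB3B, CADPS, DNM1, DNM3, SNAP91 and SYNJ1. They come from every role group but the active zone. The share of all tested genes that rose in all 3 was not computed. For the counts per role group below, the shares of all tested genes called higher were 17.4%, 12.3% and 17.4% in siMYCN, siHAND2 and the combined knockdown. Those called lower were 16.3%, 30.4% and 50.1%. NSF, UNC13B, PCLO and AMPH passed in none of the 3 comparisons with siCtrl. The summed level of all 38 genes was 1043 to 1123 CPM in siCtrl and 1640 to 1695 in siMYCN, with 1284 to 1464 in siHAND2 and 1179 to 1868 in the combined knockdown. The sum of every knockdown sample was above every control sample. The lowest of these sums, 1179 CPM in combined replicate 3, held 221 CPM of SYT11 alone, against 66.6 to 68.5 CPM in the controls. Abundant genes such as SYT11 weigh most on the sum, so it does not show a rise of the genes in general.

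**Figure D2:**
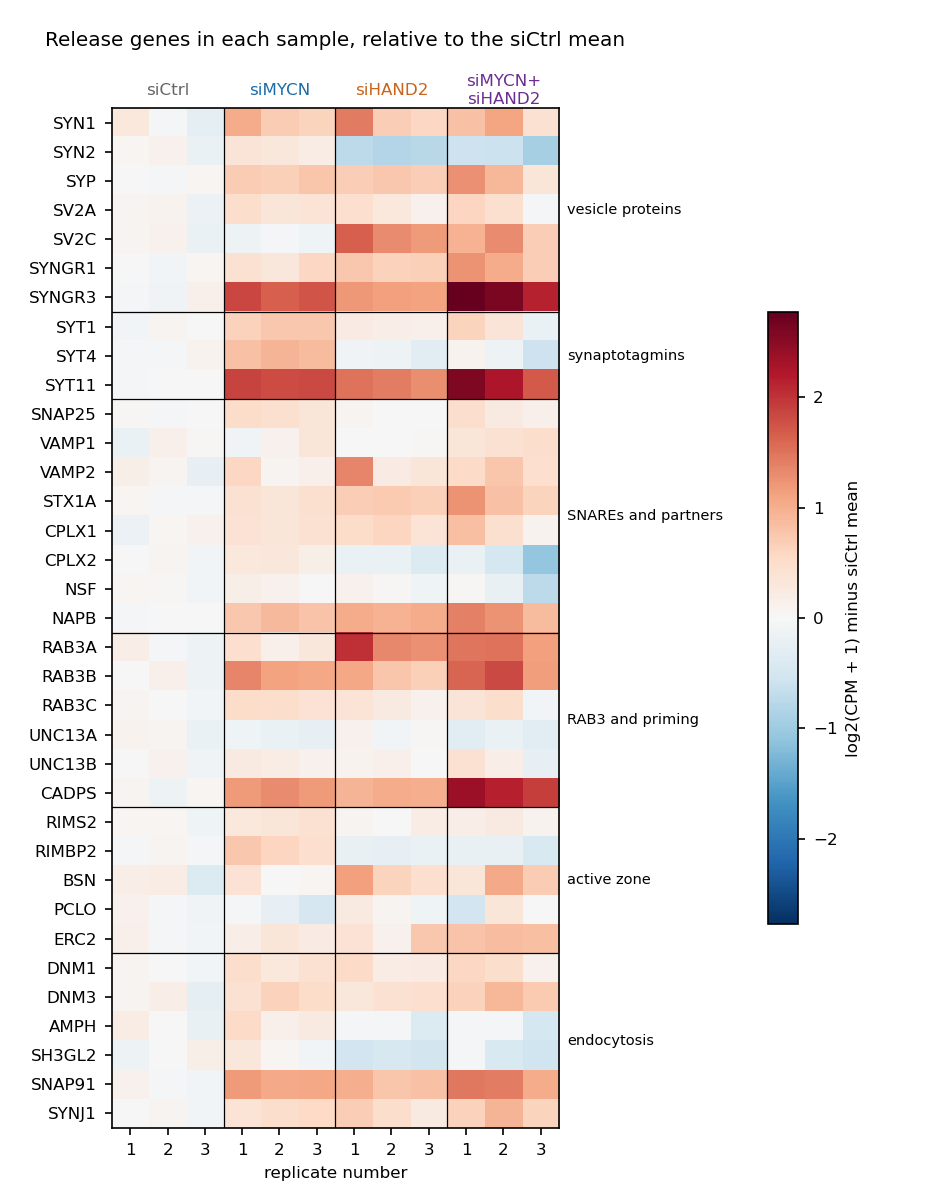
Level of each of the 35 tested release genes (rows, by role) in each of the 12 samples (columns, by group and replicate number) as log2(CPM + 1) less the mean of siCtrl, red above and blue below it. The darkest rows are SYNGR3, SYT11 and CADPS, with mean changes of 2.51, 2.17 and 2.15 in the combined knockdown.

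In control cells, per kilobase of exon, the most abundant of these RNAs were those of CPLX2 at 21.2 CPM per kb, SYT1 at 19.6, SYT4 at 13.8, SYT11 at 13.1, NSF at 10.8 and SYP at 10.2. SYT11 took the first place in each knockdown, at 47.3 CPM per kb in siMYCN, 34.9 in siHAND2 and 61.4 with both siRNAs. Exon length here is the union over annotated isoforms, so rare long isoforms lower a gene's value.

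Among the proteins of the vesicle itself, 5 of 7 genes rose in siMYCN, 5 rose and 1 fell in siHAND2, and 6 rose and 1 fell in the combined knockdown. SYNGR3 encodes synaptogyrin-3, a 4-pass membrane protein of synaptic vesicles, and lies at chr16:2039946-2044277 (hg19, plus strand). Its level was 0.826, 0.753 and 1.06 CPM in the siCtrl samples, 5.75, 4.94 and 5.25 CPM in siMYCN, 3.32, 3.15 and 3.07 CPM in siHAND2, and 11.8, 10.5 and 7.22 CPM in the combined knockdown. The 4 groups did not overlap, and the order was siCtrl, siHAND2, siMYCN and combined. The mean was 6.03-fold, 3.61-fold and 11.2-fold that of siCtrl in siMYCN, siHAND2 and the combined knockdown. Its siCtrl mean of 0.881 CPM was under the limit of 1 CPM. SYNGR3 entered the test through its knockdown samples, since the limit is on the mean of all samples. A log2(CPM + 1) value understates the change of a gene this low, and on that scale the differences were 1.75 (SE 0.13, adjusted p = 6.2e-10), 1.16 (1.8e-07) and 2.51 (3.9e-14).

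Its paralog SYNGR1, synaptogyrin-1, was higher to begin with and rose less. It went from 16.3 ± 0.777 CPM (SD, n = 3, as for all values given in this form) in siCtrl to 22.5 ± 2.05 in siMYCN, 26.8 ± 1.03 in siHAND2 and 33.7 ± 6.58 with both siRNAs. The call in siMYCN was lost without siMYCN replicate 3, at an adjusted p of 0.056. SYP, synaptophysin, the abundant vesicle protein used as a neuroendocrine marker, rose from 71.5 ± 2.45 CPM to 118 ± 4.04, 117 ± 3.57 and 134 ± 41.0 CPM, and its 3 combined samples spread from 90.9 to 173 CPM.

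The SV2 glycoproteins are transporter-like proteins of vesicles, and SV2C and SV2A are among the 38 genes. SV2C, at chr5:75379239-75649765 (hg19, plus strand), stood at 12.7, 13.2 and 10.4 CPM in siCtrl and 10.8, 11.8 and 11.0 CPM in siMYCN. It stood at 39.9, 31.2 and 28.3 CPM in siHAND2 and at 24.4, 31.0 and 19.8 CPM in the combined knockdown. Both groups with the HAND2 siRNA lay above all samples of the other groups, and siCtrl and siMYCN overlapped. The change was 1.37 in siHAND2 (SE 0.14, adjusted p = 2.3e-08; 2.74-fold) and 0.98 in the combined knockdown (1.1e-06; 2.08-fold), and siMYCN differed from siCtrl by -0.10 (adjusted p = 0.63). SV2A, the form found in most neurons, was 44.6 ± 4.4 CPM in siCtrl and 59.1 ± 3.19 in siMYCN, with 54.9 ± 6.63 in siHAND2 and 57.3 ± 12.3 with both siRNAs. It rose in siMYCN and the combined knockdown at adjusted p of 0.025 and 0.032, and each call was lost without any of 3 libraries: siCtrl replicate 3 and siMYCN replicates 1 and 3 for the first, siCtrl replicate 3 and combined replicates 1 and 2 for the second. After rescaling SV2A was called higher in all 3 knockdowns.

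The synapsins, which tether vesicles in the reserve pool, moved in opposite directions under HAND2 siRNA. SYN1, at chrX:47431300-47479257 (hg19, minus strand), was 7.41, 5.71 and 4.69 CPM in siCtrl, 13.1, 10.2 and 9.55 CPM in siMYCN, 17.5, 9.98 and 9.12 CPM in siHAND2, and 11.0, 13.7 and 8.12 CPM in the combined knockdown. All knockdown samples lay above the control samples, with siHAND2 replicate 1 highest. SYN1 overlaps ARAF and TIMP1 on the other strand (a mean of up to 18.1 CPM), and since the use of strand is not known, its value is uncertain. It rose by 0.79 in siMYCN (adjusted p = 0.0018), 0.89 in siHAND2 (3.9e-04) and 0.77 in the combined knockdown (7.2e-04). SYN2, at chr3:12045834-12233533 (hg19, plus strand), was 59.5, 62.3 and 50.5 CPM in siCtrl, 74.0, 70.9 and 66.0 CPM in siMYCN, 34.4, 32.3 and 33.0 CPM in siHAND2, and 38.1, 37.5 and 29.9 CPM in the combined knockdown. The 6 samples with HAND2 siRNA were below all 6 others, and the siMYCN samples were the highest. SYN2 fell by 0.77 in siHAND2 (adjusted p = 9.2e-06) and by 0.70 in the combined knockdown (1.1e-05). After rescaling these falls were 0.61 and 0.34, both called, and the difference in siMYCN was 0.29 on the deposited scale (adjusted p = 0.057, or 0.026 with the replicate numbers as a block) and 0.30 after rescaling (0.0036).

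**Figure D3:**
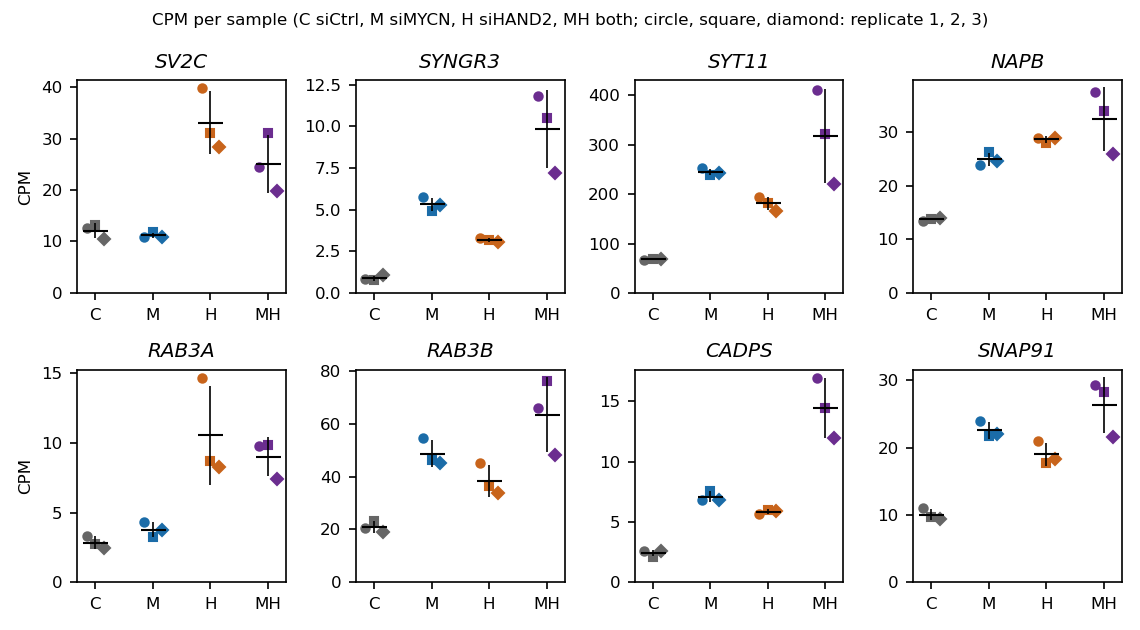
CPM in each of the 12 samples for the 8 release genes with a called log2 change of at least 1, by group (C siCtrl, M siMYCN, H siHAND2, MH combined), on linear axes from 0; points are samples, and the bar and whiskers are the mean and SD of 3. SYNGR3, SYT11 and CADPS are above the controls in every knockdown sample, and SV2C and RAB3A separate the groups with HAND2 siRNA from those without it.

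Of the 38 genes 4 encode synaptotagmins; the 3 of them that were tested all rose in siMYCN, and 1 of the 3 rose in each group with HAND2 siRNA. SYT11, synaptotagmin-11, which lacks calcium binding and is known to restrain endocytosis, lies at chr1:155829260-155854991 (hg19, plus strand). It was 66.6, 68.5 and 68.4 CPM in siCtrl, 252, 239 and 243 CPM in siMYCN, 194, 182 and 167 CPM in siHAND2, and 412, 322 and 221 CPM in the combined knockdown. All knockdown samples lay far above the controls, and the combined samples ranged from below the siMYCN samples to far above them. The change was 1.84 in siMYCN (SE 0.15, adjusted p = 1.3e-09; 3.61-fold), 1.40 in siHAND2 (3.9e-08; 2.67-fold) and 2.17 in the combined knockdown (2.7e-12; 4.69-fold).

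SYT1, the fast calcium sensor of release, rose in siMYCN from 186 ± 10.8 to 304 ± 13.5 CPM, a change of 0.71 (adjusted p = 3.6e-04). It was 212 ± 5.62 CPM in siHAND2 and 228 ± 61.3 CPM in the combined knockdown, at 0.19 (0.29) and 0.26 (0.11), and was called higher in both after rescaling, at 0.35 and 0.62. SYT4, a synaptotagmin of dense-core vesicles that is induced by activity, had 57.4, 57.4 and 63.2 CPM in siCtrl and 105, 115 and 110 CPM in siMYCN. It had 55.4, 53.5 and 48.1 CPM in siHAND2 and 63.8, 53.5 and 39.5 CPM in the combined knockdown. The siMYCN samples stood far above the rest, the siHAND2 samples were just below the controls, and the combined samples overlapped with them. SYT4 rose by 0.88 in siMYCN (adjusted p = 1.3e-05), and the other knockdowns differed from siCtrl by -0.18 and -0.20 (0.29 and 0.17). The difference of the combined knockdown from siMYCN was -1.08 (1.9e-07), and -0.74 after rescaling.

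SYT5, a synaptotagmin of secretory vesicles, was too low for the test, with 0.110, 0.160 and 0.0524 CPM in siCtrl, 0.686, 0.568 and 0.377 CPM in siMYCN, 0.633, 0.706 and 0.691 CPM in siHAND2, and 1.45, 1.61 and 0.975 CPM in the combined knockdown. Every knockdown sample was above the controls. With no filter on low values, limma gave it changes of 0.47 (adjusted p = 0.021), 0.60 (0.0049) and 1.07 (6.5e-05).

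In the SNARE group, 4 of 8 genes rose in siMYCN, 4 in siHAND2 and 6 with both siRNAs, where 1 fell. NAPB encodes beta-SNAP, the neuronal adaptor through which NSF takes used SNARE complexes apart, at chr20:23355156-23402157 (hg19, minus strand). It was 13.5, 13.8 and 14.0 CPM in siCtrl, 23.9, 26.3 and 24.7 CPM in siMYCN, 29.0, 28.0 and 29.0 CPM in siHAND2, and 37.6, 34 and 25.9 CPM in the combined knockdown. The controls were tightly grouped below all other samples, and siHAND2 lay above siMYCN without overlap. The change was 0.81 in siMYCN (SE 0.12, adjusted p = 8.1e-06; 1.81-fold), 1.01 in siHAND2 (2.0e-07; 2.08-fold) and 1.17 in the combined knockdown (3.3e-09; 2.36-fold). NSF itself, the ATPase, was 102 ± 4.65 CPM in siCtrl and 109 ± 5.71, 103 ± 7.96 and 84.5 ± 21.6 CPM in the knockdowns, with no call against siCtrl. NSF overlaps other listed genes on its own strand, among them its copy NSFP1, so its value is uncertain.

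STX1A, syntaxin-1A, the plasma membrane SNARE, rose from 17.4 ± 0.548 CPM to 23.2 ± 0.997, 28.6 ± 0.634 and 33.6 ± 8.01 CPM. Its call in siMYCN (adjusted p = 0.016) was lost without siCtrl replicate 2 or 3 or siMYCN replicate 3. SNAP25, its plasma membrane partner, went from 17.5 ± 0.476 to 23.8 ± 1.51 CPM in siMYCN and 21.8 ± 2.91 CPM in the combined knockdown, and the call in the second (0.022) was lost without siCtrl replicate 2 (0.070). Its siHAND2 level was 17.9 ± 0.465 CPM, a difference of 0.03. After rescaling SNAP25 was called higher in all 3 knockdowns.

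The vesicle SNAREs, synaptobrevins, were low. VAMP2 had 4.46, 4.15 and 3.19 CPM in siCtrl, 6.31, 4.2 and 4.42 CPM in siMYCN, 11.5, 4.77 and 5.19 CPM in siHAND2, and 6.09, 7.31 and 5.73 CPM in the combined knockdown. A single library, siHAND2 replicate 1, stood far above its group, and siMYCN overlapped with the controls. The rise in siHAND2 (0.64, adjusted p = 0.0097) was lost without that library or siCtrl replicate 3, at p up to 0.13, and the rise in the combined knockdown (0.58, 0.010) without siCtrl replicate 3 or combined replicate 2. VAMP1 was called in the combined knockdown, where it rose from 2.80 ± 0.432 to 4.04 ± 0.252 CPM (0.41, adjusted p = 0.0055), with differences of 0.12 and 0.01 in siMYCN and siHAND2.

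The complexins, which clamp assembled SNAREs, parted. CPLX1 rose from 13.3 ± 1.43 CPM to 17.7 ± 0.571, 19.2 ± 1.45 and 19.1 ± 5.09 CPM, and its siMYCN call (adjusted p = 0.029) was lost without siCtrl replicate 1 or 2 or any single siMYCN replicate. CPLX2, about an order of magnitude more abundant, was 148, 156 and 142 CPM in siCtrl, 183, 185 and 167 CPM in siMYCN, 130, 131 and 114 CPM in siHAND2, and 132, 106 and 70.3 CPM in the combined knockdown. The siMYCN samples lay above the controls, and all samples with HAND2 siRNA lay below them. Only the fall in the combined knockdown passed, at 0.58 (adjusted p = 0.0015), or 0.22 after rescaling (0.042). In siMYCN the difference was 0.26 (adjusted p = 0.20), and after rescaling 0.27 (0.026).

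Among RAB3 proteins and priming factors, 3 of 6 tested genes rose in siMYCN, 3 in siHAND2 and 3 with both siRNAs, where 1 fell. RAB3A, the main small GTPase of synaptic vesicles, lies at chr19:18307611-18314875 (hg19, minus strand). It was 3.33, 2.74 and 2.49 CPM in siCtrl, 4.30, 3.24 and 3.76 CPM in siMYCN, 14.6, 8.71 and 8.29 CPM in siHAND2, and 9.74, 9.85 and 7.41 CPM in the combined knockdown. The 6 samples with HAND2 siRNA lay above the 6 without it, and siMYCN overlapped with siCtrl. The rise was 1.55 in siHAND2 (SE 0.16, adjusted p = 1.8e-08; 3.69-fold) and 1.37 in the combined knockdown (2.7e-08; 3.15-fold), and without siHAND2 replicate 1 the first was 1.31. In siMYCN the difference was 0.31 (adjusted p = 0.14, or 0.043 with the replicate numbers as a block).

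RAB3B, at chr1:52373628-52456437 (hg19, minus strand), is the form known from endocrine cells, and it rose in all 3 knockdowns. Its levels were 20.7, 23.2 and 18.9 CPM in siCtrl, 54.6, 46.4 and 45.0 CPM in siMYCN, 45.3, 36.3 and 33.8 CPM in siHAND2, and 65.7, 76.2 and 48.1 CPM in the combined knockdown. No knockdown sample overlapped with the controls, while siMYCN overlapped with both other knockdowns. The change was 1.18 in siMYCN (SE 0.14, adjusted p = 6.5e-07; 2.32-fold), 0.84 in siHAND2 (3.7e-05; 1.84-fold) and 1.53 in the combined knockdown (7.6e-10; 3.02-fold). RAB3C rose in siMYCN, from 21.7 ± 1.25 to 30.3 ± 1.34 CPM (0.46, adjusted p = 0.0061), and stood at 26.0 ± 2.37 and 26.6 ± 5.46 CPM in the others, at 0.25 (0.12) and 0.26 (0.073). After rescaling it was called higher in all 3.

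CADPS encodes CAPS1, the priming factor of dense-core vesicles, at chr3:62384021-62861065 (hg19, minus strand). It was 2.64, 2.15 and 2.58 CPM in siCtrl, 6.83, 7.61 and 6.82 CPM in siMYCN, 5.67, 6.03 and 5.93 CPM in siHAND2, and 16.9, 14.4 and 12.0 CPM in the combined knockdown. The 4 groups were fully apart, in the same order as for SYNGR3. The change was 1.23 in siMYCN (SE 0.12, adjusted p = 2.0e-08; 2.89-fold), 1.00 in siHAND2 (2.7e-07; 2.39-fold) and 2.15 in the combined knockdown (6.3e-14; 5.88-fold).

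The Munc13 primers changed little. UNC13A was 36.9 ± 3.90 CPM in siCtrl and 32.5 ± 1.37 in siMYCN, with 37.6 ± 2.46 in siHAND2 and 30.4 ± 1.5 with both siRNAs. Its fall in the last (0.27, adjusted p = 0.034) was lost without siCtrl replicate 1 or 2 or siMYCN replicate 2, and on the rescaled scale the direction flipped, to 0.08 (adjusted p = 0.48). UNC13B was 57.7 ± 4.46, 65.9 ± 3.19, 61.2 ± 2.85 and 64.2 ± 14.4 CPM, with calls only after rescaling, at 0.20, 0.24 and 0.48. CADPS2, the CAPS paralog, was read in siCtrl replicate 1 alone, at 0.0276 CPM, under the 0.0468 to 0.0949 CPM that 3 reads are worth.

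In the active zone, where release sites are built, 2 of 5 tested genes rose in each knockdown and 1 fell in the combined one. RIMBP2, which links RIM proteins to calcium channels, was 11.8, 12.7 and 11.5 CPM in siCtrl, 20.9, 18.5 and 17.0 CPM in siMYCN, 10.3, 10.1 and 10.5 CPM in siHAND2, and 10.3, 10.3 and 8.63 CPM in the combined knockdown. The siMYCN samples alone were high, and all samples with HAND2 siRNA were just below the controls. It rose by 0.60 in siMYCN (adjusted p = 1.3e-04), and its fall of 0.28 in the combined knockdown (0.028) was lost without siCtrl replicate 1 or 2 or combined replicate 3 and flipped to 0.05 (0.58) after rescaling. RIMS2 rose in siMYCN from 16.6 ± 1.24 to 21.4 ± 1.07 CPM (0.35, adjusted p = 0.013), a call lost without siCtrl replicate 3 or siMYCN replicate 3. After rescaling RIMS2 was called higher in all 3 knockdowns.

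BSN, bassoon, one of the giant scaffold proteins, was 28.2, 28.5 and 18.8 CPM in siCtrl, 32.9, 24.8 and 25.6 CPM in siMYCN, 56.0, 38.3 and 34.7 CPM in siHAND2, and 31.3, 52.1 and 40.8 CPM in the combined knockdown. Both groups with HAND2 siRNA lay above the controls and varied widely, and siMYCN overlapped with the controls. The rises were 0.74 in siHAND2 (adjusted p = 0.0015) and 0.69 in the combined knockdown (0.0014). PCLO, piccolo, its relative, was 2.68 ± 0.266, 2.12 ± 0.469, 2.87 ± 0.499 and 2.63 ± 1.07 CPM, with no call.

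ERC2, another scaffold, rose from 4.61 ± 0.494 CPM to 6.64 ± 1.70 in siHAND2 (0.42, adjusted p = 0.010, lost without siHAND2 replicate 3 at 0.13) and to 8.92 ± 0.212 in the combined knockdown (0.83, 4.1e-06). RIMS1 was below the limit of the test. It was listed at the table's lowest value in siCtrl replicates 1 and 2 and at 0.0350 CPM in replicate 3, and had 0.132, 0.222 and 0.141 CPM in siMYCN, 0.0317, 0.118 and 0.143 CPM in siHAND2 and 0.249, 0.311 and 0.268 CPM in the combined knockdown. The combined samples were the highest. With no filter on low values, limma called the siMYCN change (0.20, adjusted p = 0.016) and the combined change (0.34, 3.1e-04) and not that in siHAND2 (0.12, 0.11).

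Among endocytosis genes, 4 of 6 rose in siMYCN, 4 rose and 1 fell in siHAND2, and 4 rose and 1 fell in the combined knockdown. SNAP91 encodes AP180, the clathrin assembly protein of synapses, at chr6:84262605-84419128 (hg19, minus strand). It was 11.0, 9.68 and 9.41 CPM in siCtrl, 23.9, 21.6 and 22.1 CPM in siMYCN, 21.0, 17.7 and 18.3 CPM in siHAND2, and 29.2, 28.2 and 21.5 CPM in the combined knockdown. All knockdown samples were clear of the controls, and siMYCN was above siHAND2. The change was 1.10 in siMYCN (SE 0.12, adjusted p = 1.3e-07; 2.25-fold), 0.86 in siHAND2 (2.5e-06; 1.90-fold) and 1.3 in the combined knockdown (5.9e-10; 2.62-fold).

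SYNJ1, synaptojanin-1, the lipid phosphatase that strips the clathrin coat, rose from 9.03 ± 0.582 CPM to 12.9 ± 0.879, 13.0 ± 2.08 and 15.8 ± 2.16 CPM. DNM3 and DNM1, dynamins that cut vesicles from the membrane, rose from 2.92 ± 0.605 to 4.58 ± 0.437, 4.16 ± 0.296 and 5.59 ± 0.632 CPM and from 2.46 ± 0.189 to 3.58 ± 0.298, 3.35 ± 0.550 and 3.57 ± 0.738 CPM. The DNM3 call in siHAND2 was lost without siCtrl replicate 3. The DNM1 calls were all near the threshold, at adjusted p of 0.018, 0.045 and 0.011. The siMYCN call was lost without siCtrl replicate 3 or siMYCN replicates 1 or 3, the combined call without combined replicate 1, and the siHAND2 call without any one of siCtrl replicates 1 to 3, siMYCN replicates 1 to 3, siHAND2 replicate 1 and combined replicate 2. DNM1 overlaps CIZ1 on the other strand (a mean of 39.4 CPM) and DNM3 overlaps listed genes of up to 8.96 CPM. Whether the counting used strand is not given in the sources used here, so the values of both are uncertain.

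SH3GL2, endophilin A1, which bends the neck of the bud, fell. It was 3.55, 3.99 and 4.67 CPM in siCtrl, 5.25, 4.25 and 3.76 CPM in siMYCN, 2.5, 2.74 and 2.55 CPM in siHAND2, and 3.90, 2.80 and 2.46 CPM in the combined knockdown. The siHAND2 samples were below all controls, and the combined samples overlapped with them. The fall was 0.49 in siHAND2 (adjusted p = 0.0048) and 0.33 in the combined knockdown (0.031). The second was lost without siCtrl replicate 2 or 3 or combined replicate 2 or 3 and was 0.06 (0.65) after rescaling. AMPH, amphiphysin, was 11.3 ± 1.75, 14.2 ± 2.17, 10.0 ± 1.38 and 9.82 ± 1.79 CPM in the 4 groups, with no call against siCtrl on the deposited scale. The siMYCN difference of 0.31 (adjusted p = 0.092) passed with the replicate numbers as a block (0.025) and after rescaling (0.038).

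A few libraries stood out for these genes. For 6 of them siHAND2 replicate 1 was at least 1.3 times the mean of the other 2 siHAND2 samples: 2.3 times for VAMP2, 1.83 for SYN1, 1.72 for RAB3A, 1.53 for BSN, 1.34 for SV2C and 1.31 for DNM1, with a median of 1.07 over the 35. Without it 17 rose and 2 fell in siHAND2. Combined replicate 3 was the highest of its group for 1 of 35 genes, with a median deviation of -0.28 (log2) from the group's mean. In that library the listed genes took 44.3% of the reads, the lowest share of the 12 samples. Without it 25 rose and 3 fell in the combined knockdown. The shares of all tested genes in these fits without 1 library are not given here, so the counts cannot be set against them.

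**Figure D4:**
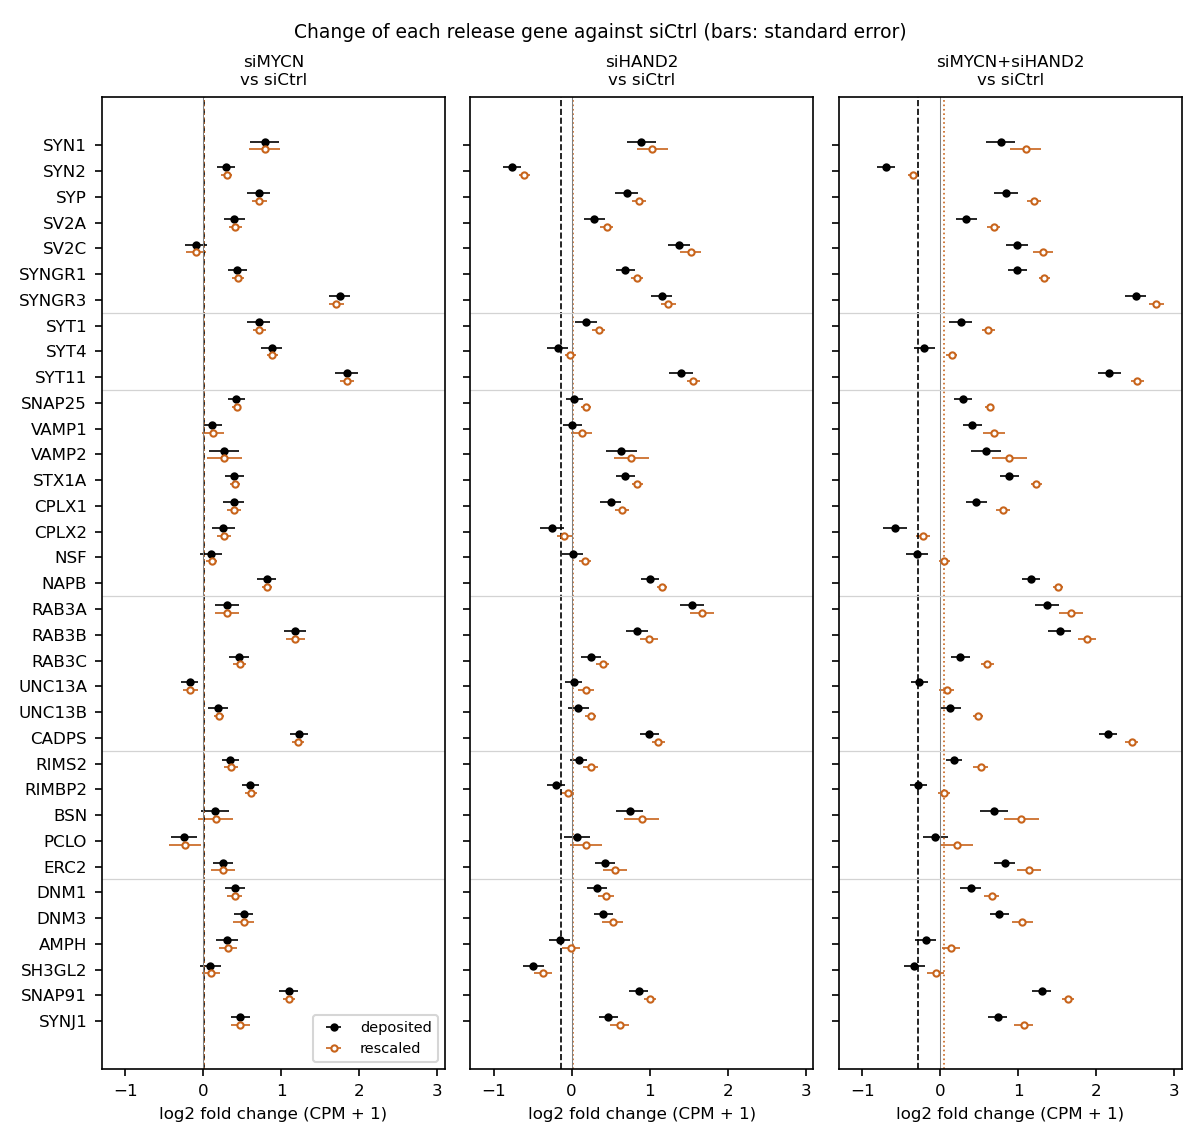
Log2 change from siCtrl on the log2(CPM + 1) scale for each of the 35 tested release genes in each knockdown, on the deposited scale (filled) and after rescaling (open), with bars for the standard error and dashed or dotted lines at the median of all tested genes. SV2C and RAB3A lie at -0.10 and 0.31 in siMYCN and at 1.37 and 1.55 in siHAND2 on the deposited scale, and SYN2 lies at 0.29 and -0.77.

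The single knockdowns were then compared with each other directly. Between siMYCN and siHAND2 10 of 35 genes were higher in siMYCN (28.6%) and 3 in siHAND2 (8.57%). These shares were near those of all tested genes, 26.1% and 8.98%. Higher in siMYCN were SYN2, SYNGR3, SYT1, SYT4, SYT11, SNAP25, CPLX2, RIMBP2, AMPH and SH3GL2, and higher in siHAND2 were SV2C, RAB3A and BSN. SV2C differed by -1.47 (adjusted p = 7.2e-09), RAB3A by -1.24 (7.7e-07) and SYN2 by 1.06. The SYT11 call (0.44, 0.024) was lost without any single siMYCN replicate or siHAND2 replicate 2 or 3, the BSN call without siMYCN replicate 2 or siHAND2 replicate 1, and the AMPH call without siMYCN replicate 1 or siHAND2 replicate 3. With the replicate numbers as a block VAMP2 (adjusted p = 0.034), STX1A (0.038) and RAB3B (0.016) were also called. After rescaling the same comparison had 10 higher (28.6%) and 8 lower (22.9%), against 22.3% and 22.2% of all genes.

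Adding the HAND2 siRNA to the MYCN siRNA gave 11 genes higher and 8 lower than siMYCN alone, against 8.92% and 50% of all tested genes, and 23 higher and 4 lower after rescaling (30.1% and 26.5%). The largest rises were those of SV2C at 1.08 (adjusted p = 5.5e-07), RAB3A at 1.07 (3.1e-06), CADPS at 0.92 (4.6e-07) and SYNGR3 at 0.76 (4.2e-05). SYT4 at -1.08, SYN2 at -0.99 (1.2e-07), RIMBP2 at -0.88 (2.5e-07) and CPLX2 at -0.84 were the largest falls, and all 4 were also lower after rescaling. For SYT1 the fall of 0.45 (0.0089) was 0.10 (0.32) after rescaling. Single libraries ended 6 of these calls: those of NAPB without siMYCN replicate 1 or combined replicate 2, BSN without siMYCN replicate 2 or combined replicate 2, SH3GL2 without siMYCN replicate 1 or combined replicate 3, NSF without siMYCN replicate 1 or 2 or combined replicate 3, RAB3B without siMYCN replicate 2 or 3 or combined replicate 1 or 2, and VAMP1 without any one of siCtrl replicate 3, siMYCN replicates 1 and 2, siHAND2 replicates 2 and 3 and combined replicates 2 and 3.

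Adding the MYCN siRNA to the HAND2 siRNA gave 8 higher and 2 lower, against 8.75% and 31.5% of all tested genes, and after rescaling 20 higher and 0 lower (limma; 23 and 0 at an unadjusted p under 0.05; all genes 26.1% and 23.6%). SYNGR3 rose by 1.35 (adjusted p = 6.9e-08), CADPS by 1.15 (9.9e-08), SYT11 by 0.77 (2.2e-04), RAB3B by 0.69 (4.4e-04) and SNAP91 by 0.44 (0.0048). VAMP1, ERC2 and DNM3 were the other rises. SV2C was lower by 0.40 (0.027), a call lost without siHAND2 replicate 1 or combined replicate 1 or 3 and after rescaling (adjusted p = 0.21). UNC13A was lost without siMYCN replicate 2 or 3 or siHAND2 replicate 1 or 3, ERC2 without siHAND2 replicate 2, and DNM3 without siHAND2 replicate 1 or 2 or combined replicate 2.

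Whether the changes of the single knockdowns added up on the log2 scale was tested as an interaction, the combined change less the sum of the single changes. It was below 0 for 6 of 35 genes and above 0 for 0 of 35 (limma; 15 and 0 at an unadjusted p under 0.05), against 3.65% and 0.355% of all tested genes. The median over the 35 was -0.34, and -0.18 over all genes. The 6 were SYT11 at -1.07 (SE 0.21, adjusted p = 0.0037), SYN1 at -0.91 (0.048), SYT4 at -0.90 (0.0065), RIMBP2 at -0.68 (0.012), SNAP91 at -0.66 (0.025) and NAPB at -0.65 (0.024). After rescaling 6 were again below 0 (all genes 4.46%, and 1.69% above 0), with SYT1 in place of SYN1, and the medians were -0.16 and -0.009. SYT4 and SYT11 kept their calls without any single library, but with no filter on low values all 6 calls were lost, at adjusted p of 0.15 for SYT4 and 0.17 for SYT11. CADPS, which rose in all groups, differed from additivity by -0.07 (adjusted p = 0.81).

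**Figure D5:**
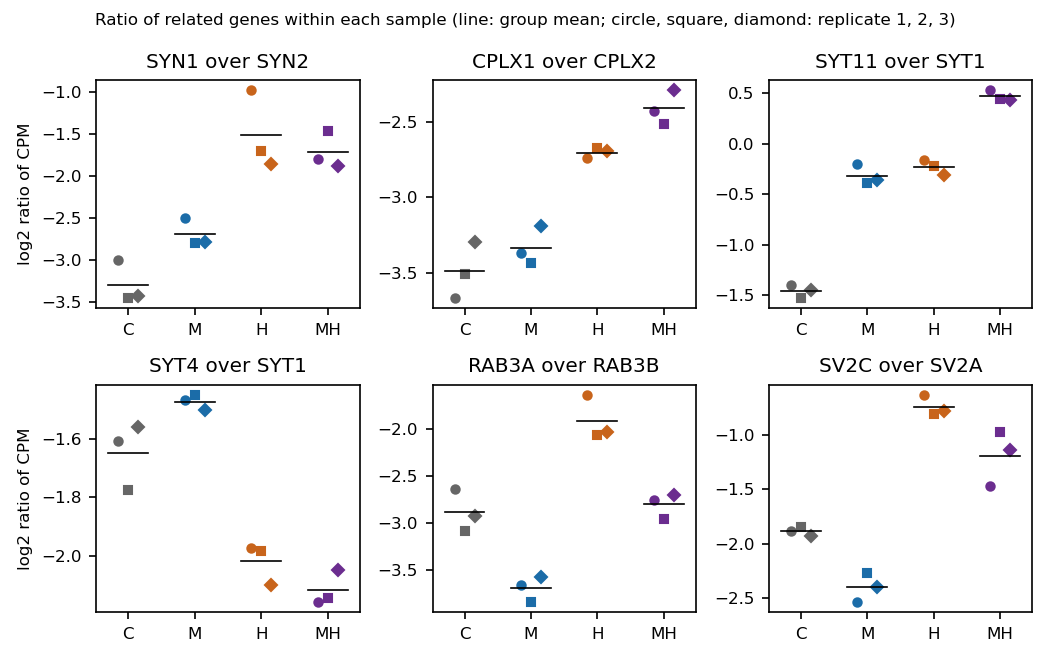
Log2 ratio of the CPM of 6 pairs of related release genes in each of the 12 samples (points, by group; lines are group means), which does not depend on the scaling. The ratio of SYT11 to SYT1 goes from -1.52 to -1.39 in siCtrl to 0.44 to 0.53 in the combined knockdown.

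The ratio of paralogs within a sample does not depend on the scaling, and 11 pairs were compared with siCtrl in the 3 knockdowns. Of the 33 comparisons 24 had groups that did not overlap, for which the exact two-sided permutation test gives its smallest possible p, 0.1 (0.138 adjusted over the 33), so none could pass 0.05. The share without overlap among other pairs of genes was not computed, so this count is not particular to these pairs. All 33 comparisons use the same siCtrl samples. SYT11 relative to SYT1 was -1.39, -1.52 and -1.45 (log2) in siCtrl, -0.19, -0.39 and -0.36 in siMYCN, -0.16, -0.21 and -0.31 in siHAND2, and 0.53, 0.44 and 0.44 in the combined knockdown. The ratio was higher in every knockdown sample than in the controls and highest in the combined samples. SYN1 relative to SYN2 had means of -3.29 in siCtrl, -2.70 in siMYCN, -1.51 in siHAND2 and -1.71 with both siRNAs, higher in every knockdown sample than in the controls.

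SYNGR3 relative to SYNGR1 went from -4.22 to -2.08, -3.07 and -1.79, and CPLX1 relative to CPLX2 from -3.49 to -3.33, -2.70 and -2.41, with overlap in siMYCN only. SV2C relative to SV2A was -1.89 in siCtrl, -2.40 in siMYCN, -0.74 in siHAND2 and -1.19 with both siRNAs, lower than the controls in 3 of 3 siMYCN samples and higher in the 6 samples with HAND2 siRNA. RAB3A relative to RAB3B likewise went from -2.88 down to -3.70 in siMYCN and up to -1.91 in siHAND2, and was -2.80 in the combined knockdown, where it overlapped with the controls (exact p = 0.7). RAB3C relative to RAB3B fell from 0.06 to -0.68, -0.56 and -1.25. SYT4 relative to SYT1 was -1.65 in siCtrl, a little higher at -1.47 in siMYCN, and lower at -2.02 and -2.12 in the groups with HAND2 siRNA. UNC13A relative to UNC13B was -0.65 in siCtrl and lower in siMYCN (-1.02) and the combined knockdown (-1.05), and overlapped with the controls in siHAND2 (-0.70). The VAMP2 to VAMP1 and DNM1 to DNM3 ratios overlapped with the controls in every knockdown.

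A longer list of 90 other release genes had more rises than falls in siMYCN on the deposited scale. With HAND2 siRNA falls outnumbered rises on that scale, as they did among all tested genes, and rises outnumbered falls after rescaling. Of the 76 tested, 15 rose (19.7%) and 7 fell (9.21%) in siMYCN, against the 17.4% and 16.3% of all tested genes given above. In siHAND2 14 rose (18.4%) and 19 fell (25.0%), against 12.3% and 30.4%, and in the combined knockdown 17 rose (22.4%) and 29 fell (38.2%), against 17.4% and 50.1%. The median changes of the list were 0.13, -0.04 and -0.18. After rescaling the counts were 27 and 11 (35.5% and 14.5%), 28 and 18 (36.8% and 23.7%), and 38 and 17 (50% and 22.4%). The shares of all tested genes on that scale were 25.4% and 22.4%, 26% and 24.8%, and 37.8% and 32.9%. The rescaled medians of the list were 0.14, 0.11 and 0.16. SYT17, another synaptotagmin, rose from 6.27 CPM to 17.6, 10.5 and 20.8 CPM, and APBA1, the Munc18-binding adaptor Mint1, from 25.3 to 50.8, 35.5 and 41.1 CPM. The APBA1 call in siHAND2 was lost without siCtrl replicate 3 or siHAND2 replicate 1, and with no filter on low values (adjusted p = 0.18). STON2, stonin-2, a sorting adaptor for synaptotagmin, was 16.2 and 15.9 CPM in siCtrl and siMYCN and 30.8 and 29.4 CPM with HAND2 siRNA. PPFIA2, liprin-alpha-2, went from 5.12 to 7.09, 8.14 and 10.2 CPM.

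Among genes of the list with a mean of at least 5 CPM, SYPL1 and SYNJ2 had the largest falls in siMYCN and the combined knockdown, and SYPL1 and STX3 in siHAND2. SYPL1, a synaptophysin-like protein of many tissues, fell from 12.9 CPM to 7.96, 5.39 and 4.13 CPM, by 0.64, 1.13 and 1.44 on the log2 scale. SYNJ2, the widely expressed synaptojanin, fell from 12.2 to 7.84, 6.17 and 4.51 CPM, by 0.58, 0.88 and 1.28. SYP and SYNJ1, their neuronal paralogs, rose in all 3 comparisons. STX3, a syntaxin of epithelial and ribbon-type release, was 35.2 and 35.8 CPM in siCtrl and siMYCN and 17.2 and 17.8 CPM with HAND2 siRNA, a fall of 0.99 in siHAND2 (adjusted p = 1.4e-07).

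Larger changes were found in less abundant genes of the list, named here after their values were seen. SYT2, a fast calcium sensor like SYT1, was 9.55, 10.8 and 8.17 CPM in siCtrl, 3.54, 2.84 and 2.31 CPM in siMYCN, 5.41, 4.94 and 4.38 CPM in siHAND2, and 1.90, 2.44 and 1.90 CPM in the combined knockdown. All knockdown samples lay below the controls, and SYT2 fell by 1.44 (adjusted p = 8.7e-09), 0.83 (1.5e-05) and 1.77 (1.1e-11). SV2B, the SV2 form outside the 38 genes, was 0.275, 0.274 and 0.296 CPM in siCtrl, 0.633, 0.445 and 0.471 CPM in siMYCN, 2.88, 2.77 and 3.45 CPM in siHAND2, and 6.72, 6.04 and 5.46 CPM in the combined knockdown. The groups did not overlap, with the combined samples highest. Its siCtrl and siMYCN means were under 1 CPM, so SV2B entered the test through the groups with HAND2 siRNA. SV2B rose by 1.65 in siHAND2 (adjusted p = 6.1e-11; 10.8-fold) and 2.46 in the combined knockdown (7.3e-15; 21.5-fold), and siMYCN differed from siCtrl by 0.24 (0.13). SNAP23, the SNAP25 paralog of many tissues, had means of 8.76, 2.65, 3.17 and 2.56 CPM in the 4 groups and fell by 1.42, 1.23 and 1.45.

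The sequence just before the start of these genes was searched for 3 short motifs on both strands: CACGTG, the E-box of MYC and MAX, CATCTG, an E-box known for HAND factors with E proteins, and CAGCACC, the first part of the element of the neuronal repressor REST. RefSeq windows of 250 bases before the start (GRCh38.p14) were found for 33 of the 38 genes, 47 windows in all. A gene was counted if any of its windows held the motif, among all genes as well. The number of windows per gene in the wider sets is not given here. The amount of sequence searched per gene may therefore differ between the shares below. CACGTG was in 1 of 33 (3.03%; 7.73% of all genes and 11.6% of tested genes with a window). CATCTG was in 9 (27.3%; 14.6% and 11.2%), those of DNM3, RAB3A, RIMBP2, RIMS1, SNAP91, SV2A, SYN1, SYNGR1 and SYT5. CAGCACC was in 6 (18.2%; 7.45% and 8.28%), those of PCLO, RIMS1, SH3GL2, SV2C, SYN1 and SYT4. A match is a run of letters and not a binding site, and no binding data were used here. The 4 windows shown are those of SYT11, the gene with the largest log2(CPM + 1) change in siMYCN and no match, SYN1, with 2 kinds of match, RAB3A, which rose with HAND2 siRNA, and UNC13A, the 1 gene with CACGTG; matches are in capitals, and each is written 5′ to 3′ on the strand of its gene.
SYT11: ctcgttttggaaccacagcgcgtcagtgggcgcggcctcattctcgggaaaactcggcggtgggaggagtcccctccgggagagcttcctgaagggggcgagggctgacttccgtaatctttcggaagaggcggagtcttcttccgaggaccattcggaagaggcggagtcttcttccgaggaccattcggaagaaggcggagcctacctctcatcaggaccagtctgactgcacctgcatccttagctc
SYN1: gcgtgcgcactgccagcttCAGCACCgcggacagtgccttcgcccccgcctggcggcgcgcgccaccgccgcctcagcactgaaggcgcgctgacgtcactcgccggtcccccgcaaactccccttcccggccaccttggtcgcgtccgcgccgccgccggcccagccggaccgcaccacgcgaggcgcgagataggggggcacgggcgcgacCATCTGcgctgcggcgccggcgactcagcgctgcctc
RAB3A: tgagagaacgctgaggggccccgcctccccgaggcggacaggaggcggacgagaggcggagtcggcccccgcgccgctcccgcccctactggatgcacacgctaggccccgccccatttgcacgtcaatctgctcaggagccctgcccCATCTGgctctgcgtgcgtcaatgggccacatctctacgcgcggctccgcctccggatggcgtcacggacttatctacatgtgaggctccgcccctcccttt
UNC13A: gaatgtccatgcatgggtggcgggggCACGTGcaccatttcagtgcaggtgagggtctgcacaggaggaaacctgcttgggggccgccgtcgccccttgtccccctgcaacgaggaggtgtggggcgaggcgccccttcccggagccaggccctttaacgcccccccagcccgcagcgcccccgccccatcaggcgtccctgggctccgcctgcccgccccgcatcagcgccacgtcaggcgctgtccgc

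The SYT11 window (chr1:155859317-155859566, plus strand, GRCh38.p14) has 60.0% G and C. In the SYN1 window (chrX:47619858-47620107, minus strand, 76.8%) CAGCACC begins 231 bases and CATCTG 37 bases before the start. CATCTG begins 102 bases before the start in the RAB3A window (chr19:18204043-18204292, minus strand, 68.4%). In the UNC13A window (chr19:17688355-17688604, minus strand, 72.0%) CACGTG begins 224 bases before the start. Whether the changes go with these motifs was not tested.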

How the data were processed

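Expression was deposited as CPM per gene (reads of a gene relative to all reads of a library, by the authors) for 12 samples, with a constant of 0.0001 in place of 0; per the submitters' processing notes STAR 2.5.1, Partek and hg19 (GRCh37) were used, and the read counter, strand setting and annotation are not given in the sources used here. Values came out as whole reads for 88.6 to 90.3% of low values (tolerance 0.05), too few for a count test. Genes with a mean of at least 1 CPM were tested with limma 3.58.1 (R 4.3.3) on log2(CPM + 1), with 4 groups in 1 fit (8 residual degrees of freedom), a trended prior and Benjamini-Hochberg adjustment over all tested genes; called means an adjusted p under 0.05, two-sided. The script was tested on simulated data. The rescaled fit divides by median ratios.

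The members and lists were chosen with earlier results of these data known. Members called with a log2 change of at least 1 in a comparison with siCtrl were given sample by sample; of the longer list, the 2 largest rises and falls per knockdown among called genes with a mean of at least 5 CPM were named (1 of these is not reported here), and other members were given in this way after their values were seen. Same-numbered samples deviated together (every correlation over 0.1) between siCtrl and siMYCN (0.147 to 0.440) and between siMYCN and siHAND2 (0.137 to 0.330), so the fit with replicate number as a block is given there. Other settings were a second pseudocount (0.1), filters (none or 5 CPM), a threshold of 0.01, scaling to the listed genes, fits of 2 groups alone and fits without each sample. Python 3.11.15, pandas 2.3.3, scipy 1.17.1 and matplotlib 3.10.9 were used. Of the 38 genes 13 overlap another listed gene, 5 on the same strand and 10 on the other.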

Additional observations from a re-analysis of the deposited data

Results flagged for a closer look

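The change in the combined knockdown differed from the sum of the single changes, by the interaction test, for 6 genes. The interaction was -1.07 for SYT11, -0.91 for SYN1, -0.90 for SYT4, -0.68 for RIMBP2, -0.66 for SNAP91 and -0.65 for NAPB on the log2(CPM + 1) scale. Of these, SYT4 and SYT11 kept an adjusted p under 0.05 in limma without any single library, and with no filter on low values all 6 calls were lost. The call of RIMBP2 was lost without siMYCN replicate 1 (adjusted p = 0.055). That of SYN1 was lost without siCtrl replicate 2 or 3, siMYCN replicate 1 or 2, siHAND2 replicate 1 or combined replicate 3, and after rescaling (-0.73, adjusted p = 0.14). That of SNAP91 was lost without siCtrl replicate 2 or 3, any single siMYCN replicate or siHAND2 replicate 1. That of NAPB was lost without any single siCtrl replicate, siMYCN replicate 2 or 3, or siHAND2 replicate 1 or 2.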

How the results depend on the processing

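Groups of 3 samples limit the precision, and genes under 1 CPM rest on few reads. For the counts below, the shares of all tested genes are given above for the deposited and rescaled scales only. For the combined knockdown against siHAND2, 10 of the 35 genes were called, 20 after rescaling, 22 with scaling to the listed genes, 21 with the replicate block and rescaling, 5 at 0.01, and 8 to 16 without 1 library (16 without combined replicate 3). For siMYCN against siHAND2, 13 were called, 22 in a fit of these groups alone, and 11 to 20 without 1 library (20 without combined replicate 3). For the interaction, 6 were called, 0 with no filter on low values (limma; 9 lower at an unadjusted p under 0.05), 10 with the replicate block, 2 at 0.01, and 3 to 15 without 1 library (15 without combined replicate 1, 3 without siCtrl replicate 2 or 3, siMYCN replicate 1 or 2, or siHAND2 replicate 1). Against siCtrl the counts without 1 library were 15 to 24 in siMYCN, 18 to 24 in siHAND2 and 23 to 28 in the combined knockdown, and 15 to 21 for the combined knockdown against siMYCN; with no filter they were 16, 14 and 22 in the 3 knockdowns. With the replicate block the counts were 22 in siHAND2 (SV2A added), 29 in the combined knockdown (NSF and RAB3C added), 21 for the combined knockdown against siMYCN and 14 against siHAND2, and no call was lost. Directions reversed under rescaling, with or without the block, for SV2A (0.28), SNAP25 (0.20), UNC13A (0.25), UNC13B (0.29) and DNM1 (0.26) against siMYCN in the combined knockdown, and for UNC13A (0.082) and RIMBP2 (0.052) against siCtrl. With scaling to the listed genes SV2A (0.22), UNC13B (0.22), UNC13A against siCtrl (0.073), RIMBP2 against siCtrl (0.043) and SYT4 against siHAND2 (0.19) reversed in the combined knockdown. For all of these the cause was not tested, beyond the higher threshold at 0.01 and the fewer samples by construction.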
